A study of Mus musculus with 122 samples.

Results

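The clustered protocadherin genes were followed in mouse embryonic stem cells that lose the insulator protein CTCF, regain it, or gain its testis paralogue CTCFL instead. Members were all genes of the RNA table whose symbols begin with Pcdha, Pcdhb or Pcdhg followed by a digit, a, b or c, which gave 57 of the 52459 genes listed: 13 alpha, 22 beta and 22 gamma. The gamma members comprise 12 of the A kind, 7 of the B kind and 3 C-type genes. All lie on the plus strand of chromosome 18 (GRCm38), with the alpha cluster at 36930184 to 37187661, the beta cluster at 37264938 to 37524479 and the gamma cluster at 37661793 to 37841873. The symbol Pcdha11 names 2 gene models of the annotation.

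Clustered protocadherins are homophilic cell adhesion proteins, best known in neurons, where each cell uses a few of the many available isoforms and so acquires a surface identity. In the alpha and gamma clusters every variable first exon has its own promoter and is spliced to shared constant exons, whereas each beta gene is a single exon. CTCF and cohesin are known to bind the promoters of most alternate isoforms and distant enhancers, while some C-type promoters lack the conserved CTCF site of the others.

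The cells were E14Tg2a embryonic stem cells of 129/Ola background in which endogenous CTCF carries an auxin-inducible degron (CTCF-AID) and the F-box protein Tir1 is expressed, so every group, untreated cells included, shares both alleles. A FLAG-tagged transgene fused to mRuby was placed at the Tigre locus under doxycycline (Dox) control and encoded CTCF, CTCFL, or a chimera named by the origin of its N terminus, zinc fingers and C terminus (LCL, CLC, CLL and LLC, with C for CTCF and L for CTCFL). Cells were untreated (U), given indole-3-acetic acid, the auxin that degrades CTCF-AID, at 500 μM (I), given Dox at 1 μg/ml (D), or given both (ID). The sample labels give 24 h of treatment and the treatment protocol 2 days, a difference that could not be settled here. Each line carries 1 transgene, nothing in the labels describes a second clone of any line, and the labels do not say whether replicates were separate cultures, so p-values measure the spread between these samples.

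RNA-seq was available for 4 lines with 2 or 3 libraries per group (38 in all), and whole reads could be recovered in 36 of them, from 6847072 to 49716771 per library. Values are normalized counts, that is reads per gene divided by 1 size factor per library. The summed count of 8 stem cell markers ranged from 69960 to 254000 over the libraries and that of 8 neural markers from 3514 to 8490, with Dcx, a marker of young neurons, at or near 0. Ctcfl averaged 207.8 normalized counts in untreated and 8244 in Dox-treated cells of the CTCFL line, which checks the induction in that line. Its mean was 31.8 untreated and 1172 with both agents in LCL, and 42.03 and 2992 in CLC. In the CTCF line Ctcf averaged 4701 untreated, 4408 with auxin, 3748 with Dox and 4063 with both (D versus U -0.33 ± 0.07, limma adjusted p = 8.7e-03), so the RNA table does not show the induction of that transgene. FLAG ChIP of CTCF D cells gave 37154 sites over the genome. Auxin acts on the protein, so Ctcf RNA is no check of depletion.

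In embryonic stem cells the gamma cluster was active, and the alpha and beta clusters were near silent. Of the 13 alpha genes, 3 were at 0 in every library, and only Pcdhac2, a C-type gene, reached a mean of 1 normalized count over all libraries (4.55). Of the 22 beta genes, 4 were at 0 throughout, and only Pcdhb22 passed a mean of 1 (1.54). By contrast, 18 of 19 gamma A and B genes and all 3 gamma C-type genes passed it, the exception being Pcdhga6 at 0.229. These are bulk samples, so fewer expressing cells and less RNA per cell cannot be told apart.

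Within the gamma cluster a single C-type gene dominated. Pcdhgc3 averaged 695 normalized counts, Pcdhga12 92.7, Pcdhgc5 33.6, Pcdhga11 26.3 and Pcdhgb7 23.1. Next came Pcdhga10 at 11.6, Pcdhga2 at 10.9, Pcdhgc4 at 10.2, Pcdhga3 at 8.89, Pcdhgb6 at 8.82, Pcdhgb2 at 8.65 and Pcdhgb5 at 8.004. Per kilobase of exon that no other gene shares, the level of Pcdhgc3 was 206, that of Pcdhga12 20.4, that of Pcdhga11 9.98, that of Pcdhgb7 8.90 and that of Pcdhgc5 7.29, so that Pcdhga11 and Pcdhgb7 ranked above Pcdhgc5 on this scale and below it by count. How reads in the shared constant exons were assigned to isoforms is not stated, and levels per gene are uncertain to that extent.

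Summed over genes, alternate gamma isoforms were lower with auxin in every line. The summed count of the C-type gamma genes stayed between 84.2% and 107.6% of the untreated mean. Every group carries the degron, so loss of CTCF and other effects of auxin cannot be told apart. The summed normalized count of the 19 gamma A and B members was 406.2 and 514.8 in the untreated CTCF line against 96.8, 75.0 and 86.3 with auxin. In the CTCFL line the sums were 317.8, 355.8 and 336.7 untreated and 121.2, 80.9 and 116.8 with auxin. In the LCL line they were 362.6 and 336.5 against 79.8 and 82.5, and in the CLC line 382.4 and 408.1 against 104.6 and 54.9. Untreated and auxin-treated libraries did not overlap in any line.

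Expressed as a share of the untreated mean, the gamma A and B sum with auxin was 18.7% in the CTCF line, 31.6% in the CTCFL line, 23.2% in LCL and 20.2% in CLC. Pcdhga12 made up much of what was left: without it the shares were 8.98%, 15.7%, 11.6% and 17.8%. The 3 C-type genes together stood at 100.3%, 107.6%, 95.2% and 84.2% of the untreated mean. Pcdhgc3 alone made up 92.3% to 98.2% of the C-type sum in the untreated and auxin groups, so the sum mainly follows that gene. The untreated and auxin sums of the 3 genes overlapped in the CTCF and CTCFL lines. In LCL the auxin sums (663.9 and 651.9) lay below the untreated ones (701.2 and 681.6), and so they did in CLC (913.2 and 693.7 against 942.1 and 965.7). These sums carry no test, since a score over chosen members has none.

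**Figure D1:**
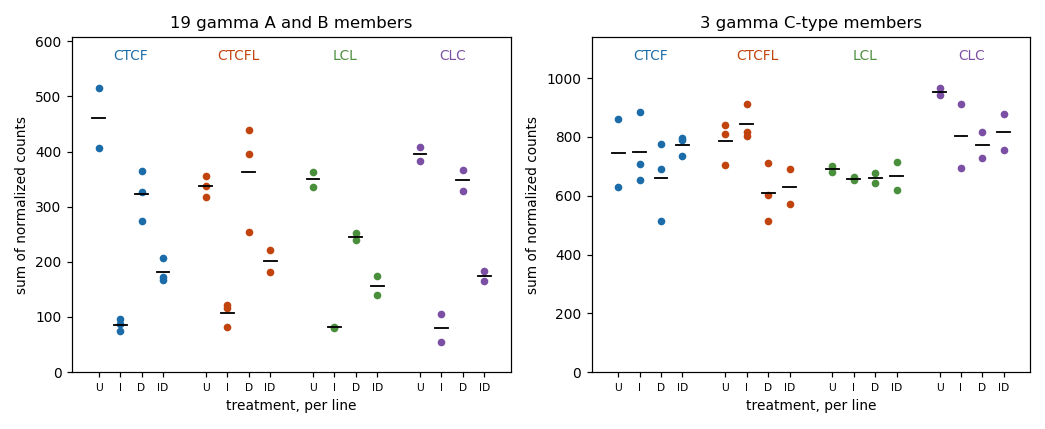
Sum of normalized counts per library (vertical axis) for the 19 gamma A and B members and for the 3 gamma C-type members, by treatment within each line; points are libraries and bars are means. The auxin libraries lie between 54.9 and 121.2 for A and B members, below all untreated libraries (317.8 to 514.8), whereas C-type sums with auxin overlap the untreated ones in the CTCF and CTCFL lines and lie slightly below them in LCL and CLC.

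Tested gene by gene over all 4 lines at once, 5 of the 8 members with a mean of at least 10 fell with auxin and none rose, where 6.25% of 16480 genes were called lower. Calls required a limma p under 0.01 after Benjamini-Hochberg adjustment and a log2 fold change beyond 1 on log2(normalized count + 1). The median log2 fold change of the 8 members was -1.56, against 0.03 for all genes. The filter uses the mean over libraries, so a member that is low with auxin passed through its untreated and Dox levels, and the 8 do not stand for all 57.

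Pcdhga11 showed the largest fall of the 5. Its normalized counts were 39.4 and 72.9 in untreated cells of the CTCF line, and 2.90, 2.27 and 1.68 with auxin. In the CTCFL line they were 21.5, 49.4 and 26.7 against 5.59, 0 and 0, in LCL 44.5 and 46.3 against 1.16 and 0, and in CLC 62.5 and 61.7 against 7.16 and 1.77. The groups did not overlap in any line, and the averaged log2 fold change was -4.21 ± 0.33 (SE; limma adjusted p = 1.3e-12).

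Pcdhga12, the last alternate isoform before the C-type genes, fell least of the 5. It held 109.5 and 145.8 normalized counts in the untreated CTCF line against 62.9, 51.1 and 54.5 with auxin, and 127.5 and 131.7 against 47.4 and 17.7 in CLC. The averaged log2 fold change was -1.35 ± 0.16 (limma adjusted p = 9.3e-09), and auxin and untreated libraries were separate in all 4 lines.

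Pcdhga2, Pcdhga10 and Pcdhgb7 completed the set. Pcdhga10 went from 18.2 and 20.4 to 2.91 and 0 normalized counts in the LCL line (averaged log2 fold change -2.80 ± 0.44, limma adjusted p = 1.5e-06). Pcdhga2 went from 16.9 and 21.4 to 0.89 and 0 in the CLC line (averaged -2.62 ± 0.32, limma adjusted p = 1.4e-08). Pcdhgb7 fell by 1.76 ± 0.46 (limma adjusted p = 1.3e-03), with a wide range between lines, from 28.7 and 37.6 to 3.87, 9.09 and 4.19 in the CTCF line but from 46.4 and 45.1 only to 35.8 and 26.6 in CLC.

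The C-type gamma genes, which neurons are known to use more uniformly than the alternate ones, were not called. Pcdhgc3 had 592.3 and 788.8 normalized counts in the untreated CTCF line and 830.5, 646.4 and 608.5 with auxin, which overlap. Its averaged log2 fold change was -0.08 ± 0.08 (limma adjusted p = 0.41). Pcdhgc4 differed by 0.65 ± 0.39 (limma adjusted p = 0.14) and Pcdhgc5 by 0.60 ± 0.27 (limma adjusted p = 0.057). For Pcdhgc5 the auxin libraries of the LCL line (26.8 and 49.3) and of CLC (36.7 and 30.1) all lay above their untreated libraries (9.12 and 22.8; 10.1 and 19.0), whereas in the CTCF and CTCFL lines they overlapped. Pcdhgc4 in CLC, too low to be tested in that line, was at 2.53 and 2.37 untreated and 12.5 and 8.86 with auxin, which do not overlap.

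With the minimum mean lowered to 1, 19 of 23 members were called lower, beside 5.19% of 23331 genes. They were all 18 gamma A and B genes above that mean and Pcdhb22. The 4 others were Pcdhac2, Pcdhgc3, Pcdhgc4 and Pcdhgc5, so that the uncalled members were all of the C type. Log2 fold changes of the 18 ran from -4.21 for Pcdhga11 and -3.47 for Pcdhgb2 to -1.46 for Pcdhgb1 and -1.35 for Pcdhga12. With no filter, 20 of 50 members were called lower, beside 3.31% of all genes, the addition being Pcdhb14. edgeR on the recovered reads at a minimum mean of 1, a fit added after the data were seen, called 18 of the 23.

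**Figure D2:**
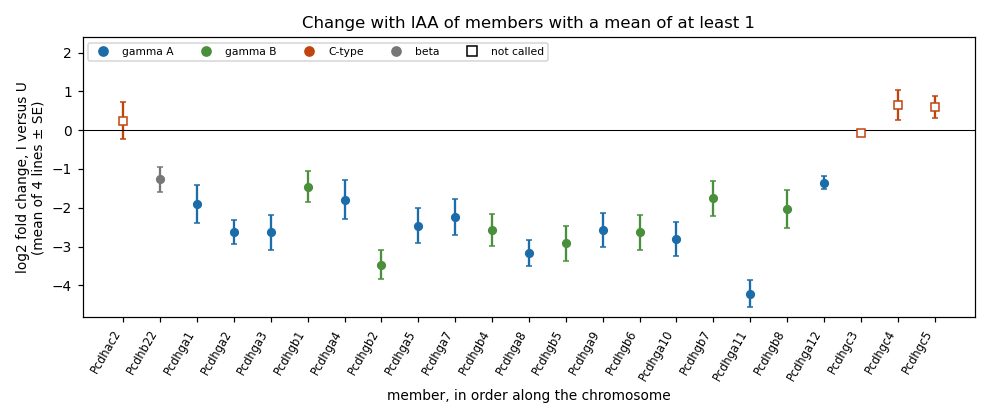
Log2 fold change of I versus U, averaged over the 4 lines (vertical axis, ± SE), for the 23 members with a mean of at least 1, in their order along the chromosome (horizontal axis); filled symbols were called with limma and open ones were not. All 18 gamma A and B genes lie below -1, from -4.21 to -1.35, and the 3 gamma C-type genes lie between -0.08 and 0.65.

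The direction was also shared between lines. The mean with auxin was below the untreated mean in all 4 lines for 18 of the 23 members, beside 19.2% of genes, and every auxin library was below every untreated library in all 4 lines for 10 of them, beside 9.32%. Those 10 were Pcdhga2, Pcdhga7, Pcdhga8, Pcdhga10, Pcdhga11, Pcdhga12, Pcdhgb2, Pcdhgb4, Pcdhgb5 and Pcdhgb7. Pcdhgb1 was the only gamma A or B gene above a mean of 1 that was not lower on average in all 4.

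Fits within 1 line called fewer members. In the CTCF line 5 of 9 members tested fell with auxin, beside 5.92% of genes, namely Pcdhga8, Pcdhga11, Pcdhga12, Pcdhgb4 and Pcdhgb7. Pcdhga8 and Pcdhgb4 passed the filter only through the untreated group, the one of the 4 groups in which either averaged over 10, so they are described without their tests. Pcdhga8 had 34.03 and 39.8 normalized counts untreated and 0.97, 0 and 0 with auxin. Pcdhgb4 had 26.6 and 38.7 untreated and 6.78, 0 and 1.68 with auxin. Pcdhgb7 in this line averaged over 10 only untreated (33.14) and with Dox (12.83). The same held for Pcdhga2 in LCL (13.32 and 20.79) and in CLC (19.12 and 26.27). Their untreated levels thus helped them to pass the filter. The counts of each line depend on the filter in this way, and they do not stand for all members. Without the second untreated library of this line 1 member was called, and without the first 3 were.

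In the CTCFL line 2 of 10 members fell, beside 5.88% of genes. They were Pcdhga11 (-4.07 ± 0.85, limma adjusted p = 5.4e-04) and Pcdhga3, whose normalized counts were 8.08, 16.8 and 23.2 untreated and 0.93, 0 and 0.91 with auxin (-3.35 ± 0.74, limma adjusted p = 8.8e-04). In the LCL line 5 of 8 fell, beside 5.34%, namely Pcdhga2, Pcdhga10, Pcdhga11, Pcdhga12 and Pcdhgb7, but 1 did without untreated replicate 1 and 2 without auxin replicate 1. In the CLC line Pcdhga2, Pcdhga11 and Pcdhga12 fell, 3 of 7 tested, beside 6.1%, and none remained called when either of its 2 untreated libraries was left out.

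The response to auxin was then compared between lines by interaction contrasts. Against the CTCFL line, 0 of 8 members were called in limma for the CTCF, LCL or CLC line, beside 0.37%, 2.86% and 3.63% of genes, and edgeR on recovered reads called 0 as well. At an unadjusted p under 0.05 the counts were 0, 1 and 2.

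Some isoforms were at 0 in every auxin library of a line. Pcdhgb2 was at 0 in all 3 auxin libraries of the CTCF line, which sets it at least 17.5-fold below its untreated mean, with 3 reads over the group as the limit that a count of 0 allows. On the same footing Pcdhga5 and Pcdhga7 were each at least 11.8-fold lower in that line. Other isoforms were at 0 with auxin elsewhere, for example Pcdhga3, Pcdhgb4 and Pcdhga9 in LCL and Pcdhga4, Pcdhgb4 and Pcdhga9 in CLC. For the genes named above for the CTCF line, some reads remained in at least 1 other line. Pcdhga7 had 1.86, 3.99 and 3.62 normalized counts with auxin in the CTCFL line, 0 and 0.81 in LCL and 0 and 4.43 in CLC. Pcdhgb2 had 2.80, 0 and 0 in the CTCFL line, 1.75 and 0 in LCL and 0.89 and 0 in CLC, and Pcdhga5 was above 0 only in LCL, in 1 library (0.81). Limits of this kind cover counting error only.

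**Figure D3:**
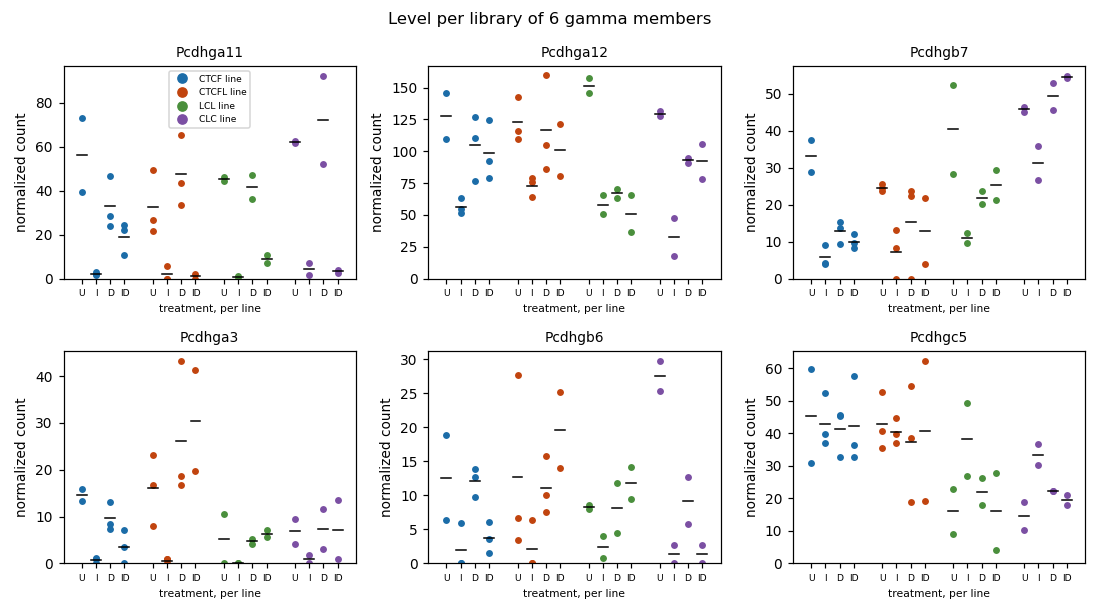
Normalized count per library (vertical axis) of 6 gamma members, by treatment within each line; points are libraries and bars are group means. Pcdhga11 is at 7.16 or less in every auxin library, Pcdhga3 returns to 19.7 and 41.2 in ID cells of the CTCFL line, and Pcdhgc5 overlaps between treatments in the CTCF line.

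The beta cluster was close to the limit of detection, and its sums are given with no test. The summed beta count was 0 in 9 of 10 auxin libraries, in 1 of 9 untreated, in 0 of 10 Dox and in 3 of 9 ID libraries. Over the libraries with recovered reads, the 22 genes together received 60 reads in 9 untreated, 4 in 9 auxin, 115 in 10 Dox and 32 in 8 ID libraries. Pcdhb22 averaged 5.99 normalized counts in the untreated CTCF line and was at 0 with auxin, at least 6.20-fold lower. The alpha genes received 38 reads untreated, 40 with auxin, 105 with Dox and 46 in ID cells. These pooled reads depend on depth and on single libraries. The highest alpha sum with Dox was 27.77, in CTCFL D replicate 2, against medians of 6.095 with Dox and 4.56 untreated. Pcdhac2 reached its highest value, 21.8, in replicate 1 of the CTCFL ID cells, and with Dox other members contributed as well, such as Pcdha6 at 6.91, 13 and 0 in the CTCFL line. Pcdhac1, the other alpha C-type gene, was above 0 in 1 library, at 2.08.

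Dox alone, which adds the transgenic protein to endogenous CTCF, called almost no member. In limma 0 of 9 members were called in the CTCF line, 0 of 10 in the CTCFL line and 0 of 7 in the CLC line, beside 0.455%, 5.9% and 0.6% of genes. The counts at an unadjusted p under 0.05 were 3, 1 and 0, and edgeR and DESeq2 on recovered reads called 0 in each. In the LCL line 1 of 8 was called, beside 1.91%: Pcdhga12, at 157.3 and 145.7 normalized counts untreated and 63.4 and 70.7 with Dox (-1.17 ± 0.30, limma adjusted p = 8.9e-03). That call was lost when any of these 4 libraries was left out and when all lines shared a fit. Against the CTCF line, 0 of 8 members differed in their response to Dox in the CTCFL, LCL or CLC line by limma or by edgeR, beside 3.5%, 1.03% and 0.837% of genes, with 0 at an unadjusted p under 0.05.

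The gamma A and B sums with Dox were 274.7, 365.4 and 327.0 in the CTCF line and 251.9 and 239.9 in LCL, and their means were 70.0% and 70.4% of the untreated mean. In CLC they were 367.2 and 329.3, or 88.1%. In these 3 lines every Dox library lay below the untreated ones. In the CTCFL line they were 394.7, 439.7 and 254.7, which straddled the untreated values. Without Pcdhga12 the Dox means were 65.38% of the untreated mean in CTCF, 90.35% in LCL, 96.09% in CLC and 115.1% in CTCFL. In CLC the Dox sums without this gene (272.3 and 238.3) overlapped the untreated ones (254.9 and 276.4).

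When CTCF was depleted and a transgene was supplied in its place, the gamma A and B sums lay between the auxin and the untreated libraries in all 4 lines. With transgenic CTCF they were 207.4, 166.6 and 172.5, or 39.6% of the untreated mean. With CTCFL they were 221.7 and 181.9 (59.9%), with LCL 174.2 and 139.8 (44.9%) and with CLC 164.8 and 184.1 (44.1%). Without Pcdhga12 the shares were 25.2%, 47.2%, 53.5% and 31.03%, so that the order of the CTCFL and LCL lines depends on this gene. In every line all ID libraries were above all auxin libraries and below all untreated ones. Comparisons of ID with I and with U share libraries with the comparisons above, so they are given side by side and not as separate support.

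The few members called higher in ID than in I cells are given by transgene. With CTCF, Pcdhga11 was the 1 member of 9 called higher in ID than in I, beside 1.76% of genes. Its normalized counts were 10.9, 22.3 and 24.2 against 2.90, 2.27 and 1.68 with auxin (2.56 ± 0.41, limma adjusted p = 2.9e-04), which still lay below the untreated 39.4 and 72.9. With LCL, Pcdhga11 was again the 1 called, of 8, beside 4.04% of genes, at 10.6 and 7.06 against 1.16 and 0 (2.72 ± 0.66, limma adjusted p = 2.1e-03). The LCL call was lost with a pseudocount of 5, with no filter on low values, and without auxin replicate 2 or ID replicate 1.

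With CTCFL the member called was Pcdhga3. It stood at 19.7 and 41.2 normalized counts in ID cells against 0.93, 0 and 0.91 with auxin and 8.08, 16.8 and 23.2 untreated (ID versus I 4.26 ± 0.82, limma adjusted p = 2.7e-04). It was 1 of 10 members tested, beside 3.94% of genes. Leaving out ID replicate 2 ended the call, and edgeR and DESeq2, for which that library gave no recovered reads, did not make it. In the same cells Pcdhga11 remained at 2.18 and 0, against 21.5, 49.4 and 26.7 untreated.

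Pcdhgb6 had normalized counts of 25.1 and 14.1 in CTCFL ID cells, 0, 0 and 6.34 with auxin and 6.73, 27.7 and 3.48 untreated. The ID and untreated libraries overlapped, and the auxin libraries lay below both ID libraries. In the fit of this line ID versus I was 3.35 ± 1.08 (limma adjusted p = 0.016), which was not called.

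With CLC, 0 of 7 members were called higher in ID than in I by limma, beside 1.15% of genes. At an unadjusted p under 0.05 the count was 2, edgeR called 0 and DESeq2 called 1. Pcdhga11 stayed at 3.76 and 2.73 normalized counts and Pcdhga2 at 0 in both libraries, at least 15.5-fold below its untreated mean of 19.1. Pcdhgb7 stood at 54.2 and 54.7 in CLC ID cells against 35.8 and 26.6 with auxin and 46.4 and 45.1 untreated, so the ID libraries were above the other 4.

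Tests of the difference itself, added after the data were seen, called none of the 8 members. The ID minus I change of the CTCFL, LCL and CLC lines was set against that of the CTCF line, beside 3.08%, 10.5% and 10.9% of genes called, and edgeR also called 0. At an unadjusted p under 0.05 the counts were 2, 2 and 1. The values nearest the threshold were those of Pcdhga11, with -2.63 ± 0.88 for CTCFL against CTCF (limma adjusted p = 0.039) and -2.73 ± 0.92 for CLC against CTCF (limma adjusted p = 0.021).

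Against untreated cells, members still called lower in ID cells were Pcdhga8 and Pcdhgb7 with CTCF (2 of 9, beside 9.26% of genes), Pcdhga11 with CTCFL (1 of 10, beside 10.7%), Pcdhga11 and Pcdhga12 with LCL (2 of 8, beside 6.78%) and Pcdhga2 and Pcdhga11 with CLC (2 of 7, beside 2.78%). Pcdhga8 had 1.21, 9.39 and 1.51 normalized counts in CTCF ID cells against 34.03 and 39.8 untreated. It entered the fit only through the untreated group, so its test is not given. Untreated levels also helped Pcdhgb7 with CTCF and Pcdhga2 with CLC to pass the filter. Pcdhga12 had 65.3 and 36.7 in LCL ID cells against 157.3 and 145.7 untreated (-1.61 ± 0.30, limma adjusted p = 1.7e-04). No member was called in the CTCF line without either untreated library, in the CTCFL line without ID replicate 2, or in CLC without any 1 of its untreated or ID libraries, and 1 was called in LCL without any 1 of its untreated, Dox or ID libraries.

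Between the 4 untreated lines 1 of 8 members differed, beside 39% of genes. Pcdhgc5 had 30.8 and 59.7 normalized counts in the CTCF line, 52.5, 35.6 and 40.6 in CTCFL, 9.12 and 22.8 in LCL and 10.1 and 19.0 in CLC (highest minus lowest line 1.56 on the log2 scale, limma adjusted p = 8.6e-03). The call was lost with TMM scaling and without any 1 of 16 libraries. The column names of the LCL and CLC libraries carry the tag 2i, the usual name for a pair of kinase inhibitors that holds stem cells in the naive state, and those of the CTCF and CTCFL libraries do not. The growth protocol lists CHIR99021 and PD0325901 for all samples. The markers Gata6 (highest minus lowest line 4.81), Esrrb (1.22) and Tfcp2l1 (1.03) were among several that also differed between untreated lines. Map2, for example, averaged 927.7 and 1042 normalized counts in untreated CTCF and CTCFL cells against 90.94 and 117.4 in LCL and CLC. Sox17 averaged 288.9 and 284.1 against 55.25 and 23.34, and Klf4 8698 and 10640 against 17410 and 22630. Nes was closer, at 2676 and 2516 against 2379 and 1813. The part of such differences in the Pcdhgc5 result was not tested. Line, the tag and library batch cannot be told apart, here or in the comparisons between these 2 pairs of lines.

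The FLAG antibody showed where the transgenic proteins sat in the clusters. Peaks of the replicates were merged and kept as a site where both had one, and a promoter was taken as bound when the start of the gene lay within 1 kb of the middle of a site. Transgenic CTCF in ID cells had 56 sites in the locus and its 100 kb flanks (67 and 57 in the single replicates), and bound 38 of 57 member promoters (66.7%), against 5.78% of 53843 genes. The 38 were 11 alpha, 11 beta and 16 gamma promoters. In D cells the counts were 64 sites and 40 promoters (70.2% against 7.85%).

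CTCFL had sites at fewer of these promoters, although its share over all genes was higher than that of CTCF. In ID cells it had 25 sites (35 and 28 in single replicates) and bound 12 member promoters (21.1%), against 10.1% of all genes, and in D cells 27 sites and 11 promoters (19.3% against 11.4%). In ID cells the 3 gamma promoters bound were Pcdhga3, Pcdhga8 and Pcdhgb6. With 2 replicates a group, an exact permutation test could not go below p = 0.33, and no test was made.

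The chimeras are given here by the zinc fingers they carry. LCL, with the fingers of CTCF, bound 24 member promoters in ID cells (42.1% against 13.4% of genes), 15 of them gamma, and 26 in D cells (45.6% against 9.0%). CLC, with the fingers of CTCFL, bound 6 in ID cells (10.5% against 5.83%) and 2 in D cells (3.51% against 1.73%). Its 3 gamma promoters in ID cells were Pcdhga3, Pcdhgb6 and Pcdhgb7. CLL bound 3 in ID cells (5.26% against 3.81%) and 0 in D cells, and LLC, which also carries the fingers of CTCFL, bound 0 in either, with 2 and 1 sites in the locus.

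A few promoters were bound in nearly every group. Pcdhga3 had a site in all 13 groups in which any member promoter had one, Pcdhac1 in 11 and Pcdhgb6 in 10. No group had one at Pcdhgc3, Pcdhgc4, Pcdhgc5, Pcdhac2, Pcdhga10 or Pcdhgb2. Among C-type genes Pcdhac1 was thus bound while its RNA was above 0 in 1 library, and Pcdhgc3, the most abundant, was not bound within this window.

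The strongest CTCF sites in ID cells were at Pcdhgb6, with -log10 q values of 118.7 and 101.2 in the 2 replicates, and at Pcdhga3, with 102.5 and 86.5. Then followed Pcdhgb7 (79.7 and 75.6), Pcdhgb8 (66.3 and 62.8) and Pcdhb3 (66.0 and 39.4). For CTCFL in D cells they were at Pcdhga3 (55.0 and 28.5), Pcdhac1 (48.4 and 42.3), Pcdha4 (24.2 and 9.83), Pcdhgb6 (16.6 and 6.25) and Pcdhb15 (16.1 and 5.95). Of the 2.904 kb of exon that Pcdha4 shares with no other member, 2.41 kb also lie under a read-through gene model. The order is by the deposited -log10 q, which grows with sequencing depth, and no ChIP read numbers were at hand.

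At Pcdhga3 the fold enrichment over local background in ID cells was 12.5 and 15.0 for CTCF, 11.9 and 9.29 for CTCFL, 7.93 and 7.27 for LCL and 7.85 and 10.4 for CLC. At Pcdhgb6 it was 11.8 and 14.2 for CTCF, 8.13 and 6.16 for CTCFL, 6.04 and 5.996 for LCL and 5.80 and 4.58 for CLC. The middle of the CTCFL ID site lay 132 bp upstream of the Pcdhga3 start and 115 bp upstream of that of Pcdhgb6.

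The ID minus I difference of the 19 gamma A and B genes was set beside the FLAG sites at their promoters. With CTCFL the median difference in log2(mean + 1) was 2.73 for the 3 with a CTCFL site (Pcdhga3, Pcdhga8 and Pcdhgb6, ranging from 0.29 to 4.29) and 0.59 for the 16 without, which ranged from -2.06 to 2.33. For LCL it was 1.14 for 15 with a site and 0.42 for 4 without, and for CLC 0.78 for 3 with and 0.00 for 16 without. For CTCF the order was the other way, with 0.82 for 16 with a site and 1.62 for the 3 without (Pcdhgb2, Pcdhga7 and Pcdhga10). These are descriptions with no test, over sets as small as 3, and the pair Pcdhga3 and Pcdhgb6 recurs in the bound set of each transgene.

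**Figure D4:**
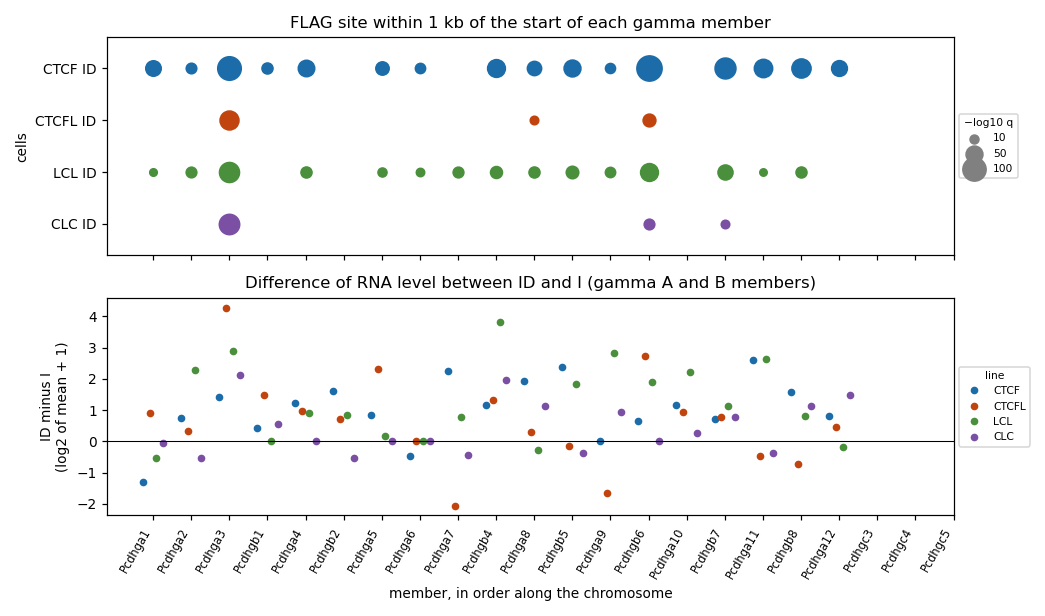
Top, FLAG sites within 1 kb of the start of each gamma member (horizontal axis, in chromosome order) in ID cells of the 4 lines, with symbol size by -log10 q. Bottom, ID minus I difference of the mean RNA level (log2 of mean + 1) for the gamma A and B members in each line. CTCF and LCL have sites at 16 and 15 members, CTCFL and CLC at 3 each, and the highest value for CTCFL, 4.29, is that of Pcdhga3.

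RNase treatment was compared with mock treatment in ID cells. For CTCF, 3 member promoters (Pcdhga3, Pcdhgb6 and Pcdhgb7) had a site after RNase and 16 after mock treatment, beside 2.1% and 4.02% of all genes. The RNase replicates were unequal, with 13 and 3 promoters each and 24896 and 8584 peaks over the genome. For CTCFL, 1 promoter (Pcdhga3) had a site after RNase and 2 (Pcdhac1 and Pcdhga3) after mock treatment, beside 1.59% and 1.41% of genes. The labels give 48 h of treatment for these samples and for CLL and LLC, against 24 h for the others.

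Several of the strongest sites away from member promoters lay at or beyond the downstream end of the gamma cluster, which ends at 37841873. CTCFL in ID cells had 5 sites between 21970 and 116303 bp past the start of Pcdhgc5, of which the strongest were at 37935213 to 37936419 (-log10 q 98.2 and 82.4) and at 37883160 to 37884362 (93.8 and 89.1). Another lay 6591 bp past the start of Pcdhga12, before the start of Pcdhgc3 (51.3 and 37.8). Transgenic CTCF in ID cells had its strongest site of the locus at 37935312 to 37936155 (127.4 and 128.9), which overlaps the CTCFL site at 37935213 to 37936419. Both of these sites cover 37935476, the start of the neighbouring minus-strand gene Diaph1. They thus lie at the promoter of a gene that is no member.

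RAD21, a subunit of the cohesin ring, gave little that both replicates shared. Only CTCF D cells had a region common to both, 362 bp past the start of Pcdhga12, with fold enrichments of 4.66 and 4.77. The single replicates of CTCF cells held 24 and 1 regions in the locus with Dox and 3 and 1 with both agents, and those of CTCFL cells 13 and 0 and 3 and 0. In LCL D they held 0 and 13, in LCL ID 4 and 0, in CLC D 0 and 7, and in CLC ID 0 in both. Replicates also differed in all their RAD21 peaks, for example 22765 against 3756 in CTCF D and 20467 against 238 in CTCFL D, so no comparison between transgenes was made.

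Hi-C domain lists placed edges differently at the gamma cluster after depletion. In bins of 40 kb and by the insulation method of Crane, untreated CTCF cells had edges 30, 270, 550 and 670 kb from the start of the first alpha gene. Untreated CTCFL cells, Dox-treated cells of the CTCF, CTCFL and LCL lines, and CTCF ID cells had edges at 30, 270, 550 and 630 kb. None of these fell inside the gamma span.

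With auxin, edges were at -10, 630 and 910 kb in the CTCF line and at -10, 590 and 870 kb in the CTCFL line. ID cells with CTCFL or CLC had 30, 590 and 870 kb, and those with LCL had -10, 590 and 870 kb. The lists of these 5 conditions thus each had 1 edge in the gamma span and lacked the one at 270 kb, whereas CTCF ID cells had the edges of the untreated CTCFL line. CLC D cells had only those at 30 and 270 kb.

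By the other method in the deposit, HiCratio, edges fell in the gamma span in CTCF I, CTCFL I, CTCFL ID and CLC ID cells (2 each) and LCL ID cells (1), and in none of the untreated, Dox or CTCF ID lists. Each list is 1 per condition, with no replicate check, and a shift of 40 kb is 1 bin.

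**Figure D5:**
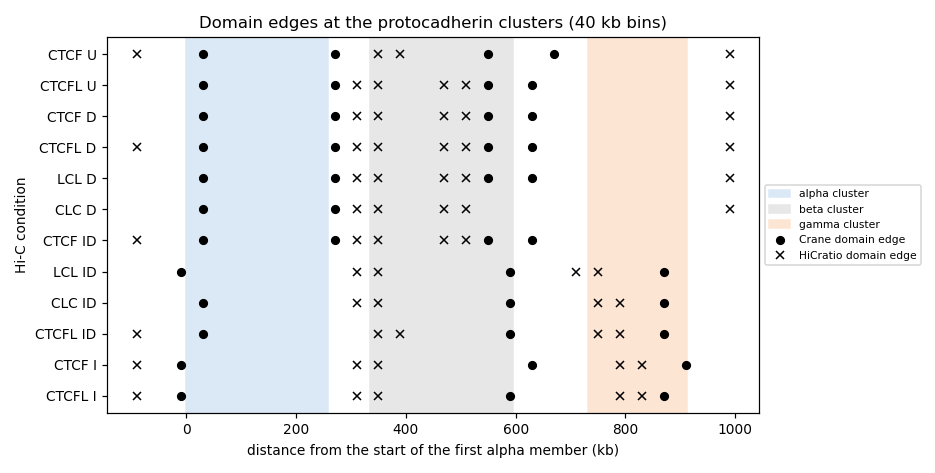
Domain edges at the protocadherin clusters for 12 Hi-C conditions (vertical axis), by distance from the start of the first alpha member in kb (horizontal axis), with shaded spans for the alpha, beta and gamma clusters. Edges by the Crane method stand at 270 kb in the untreated, Dox and CTCF ID conditions and at 870 or 910 kb in the auxin, CTCFL ID, LCL ID and CLC ID conditions.

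Other genes of the pathway were read from lists when I was set against U over the 4 lines. Of 19 regulators of promoter choice or silencing (CTCF, cohesin and its partners, Smchd1, DNA methyltransferases, Tet enzymes, Setdb1 and Rest), 0 were called by limma, although 18 had an unadjusted p under 0.05, and the median log2 fold change was -0.42. In ID against U cells limma called 8 of the 19 lower in the CTCF line, 7 in the CTCFL line and 4 in LCL, and 0 in CLC, where 8 had an unadjusted p under 0.05. Over all genes 9.26%, 10.7%, 6.78% and 2.78% were called lower in these lines, in the same order. In the average of I against U the share called lower was 6.25%, and 1101 of 16480 genes were called higher. Nipbl, which loads cohesin, and the methylcytosine dioxygenases Tet1 and Tet2 were among those lower in each of the first 3 lines, and Smchd1, a chromatin protein known to repress these clusters, was among those lower in the CTCF and CTCFL lines. Of 20 related cadherins 10 were tested and Pcdh19, a non-clustered protocadherin, fell (-1.23 ± 0.10, limma adjusted p = 4.7e-12). Of 13 signalling partners Ret, a receptor tyrosine kinase, rose (1.505 ± 0.085, limma adjusted p = 2.8e-16). Of 70 genes within 500 kb of the clusters 28 were tested, and 1, the anion transporter gene Slc4a9, rose (1.34 ± 0.39, limma adjusted p = 3.3e-03).

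Markers of other cell types were examined beside these changes. Of 6 neural markers tested 2 fell with auxin, Map2 by 2.90 and Sox1 by 1.30 on the log2 scale, and the summed neural count ranged from 5055 to 6743 untreated and from 4984 to 6567 with auxin. The trophoblast markers Cdx2 (1.90) and Krt7 (1.59) rose, with summed counts of 79.0 to 610.4 untreated and 257.2 to 1280 with auxin. In this average limma called 0 of 8 stem cell, 0 of 3 mesoderm, 0 of 4 endoderm and 0 of 3 germ cell markers, of which 7, 2, 3 and 0 had an unadjusted p under 0.05. The summed stem cell marker count had a median of 150300 untreated and 112200 with auxin. Single lines differed from the average. With auxin limma called Esrrb (-1.29) and Sox2 (-1.06) lower and Cdx2 (2.26) higher in the CTCF line, and Gata6 higher in LCL (1.22) and CLC (1.99). In ID against U cells it called Esrrb (-1.35 and -1.41), Sox2 (-1.18 and -1.29) and Tfcp2l1 (-1.12 and -1.90) lower and Cdx2 (2.85 and 2.88) higher in the CTCF and CTCFL lines, and Gata6 higher in LCL (1.22) and CLC (1.95). The part of these changes in the gamma results with auxin and in ID cells was not tested.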

How the data were processed

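The members and gene lists were chosen with earlier results of these data known. Per the labels, reads were aligned to GRCm38/mm10. The submitters' processing notes, taken from a single sample record, name Trim Galore 0.4.4, Bowtie2, SAMtools 1.3, HTSeq and deepTools. The methods name STAR for RNA-seq. HTSeq is a program that counts reads per gene, but the sources used here do not tie it to the RNA table. The RNA signal values, as deposited, are gene counts after division by a size factor that the authors set for each library. The median ratio of each library to the geometric mean was 1.017 in all 38 libraries, so the factors were set over all libraries together. In 36 libraries the values up to 500 reads were whole multiples of a common step, to a tolerance of 0.1, which gave back the reads. In replicate 2 of CTCFL I and of CTCFL ID none were recovered, and both stayed out of tests on reads.

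limma 3.58.1 (R 4.3.3, eBayes with trend) was run on log2(value + 1), in 1 fit per line over U, I, D and ID for genes with a mean of at least 10 in the line, and in 1 fit over all 38 libraries for averages and differences between lines. Calls needed a p under 0.01 after Benjamini-Hochberg adjustment over all genes tested and an absolute log2 fold change above 1, the thresholds of the methods. Named with values were members called in any fit, the 12 highest by mean, the C-type genes and the 5 strongest FLAG promoters in CTCF ID and CTCFL D, and listed genes that were called. Other members named were chosen after their values were seen. Replicate numbers did not pair the samples. Alternatives used edgeR 4.0.16 and DESeq2 1.42.0 on recovered reads. The fit was also run on simulated counts with 1 spread for all genes, unlike these libraries, and nothing is concluded from that run. Chi-square per gene between replicates with recovered reads ran from 1.36 (CLC U) to 47.8, where sampling noise alone gives about 1. Replicates of CTCFL ID could not be compared in this way.

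The ChIP-seq peak lists were called by the authors with MACS per replicate, after duplicate removal. Their fold enrichment over local background and their -log10 q values were used as deposited. Overlapping peaks were merged within and then between replicates. Domain lists are of the Crane and HiCratio methods as deposited, in 40 kb bins, with the protocol giving 4 days of treatment for Hi-C. Not analysed here were promoter sequences of the clusters, the Hi-C of CLL and IgG samples.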

Additional observations from a re-analysis of the deposited data

How the results depend on the processing

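No direction reversed where the main or the alternative fit called the member, and changes of sign among uncalled members were not counted. Under TMM scaling the median over all genes shifted by less than 0.1 on the log2 scale. Auxin against untreated, averaged over the lines, kept 5 called members (5 to 5) without any 1 library. Counts per line rest on 2 or 3 libraries a group and are less stable, and depth limits members of a few reads to statements about their group. In CTCFL ID only 1 library had recovered reads, and there, as in each group of 2 from which a library was left out, the lone sample is assumed to vary like the other groups.

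Members called changed with the threshold on low values. At a minimum mean of 1, auxin against untreated (I versus U) went from 5 to 19 for the average, to 14 in the CTCF line, 4 in CTCFL and 6 in CLC, ID versus I to 2 in CTCF and 2 in LCL, ID versus U to 5 in CTCF and 4 in CLC, the untreated lines to 3 and D versus U in LCL to 0. With no filter the counts were 20 for the average, 14 in CTCF and 3 in LCL, with ID versus I 2 in CTCF, ID versus U 4 in CTCF and 1 in LCL, the untreated lines 2 and D versus U in LCL 0. At a minimum mean of 50, which left 2 members in the averaged fit, they were 1 for the average, 1 in CTCF, 0 in CTCFL, 1 in LCL and 1 in CLC, with ID versus I 0 in CTCF, CTCFL and LCL, ID versus U 0 in CTCF, CTCFL and CLC and 1 in LCL, and untreated lines 0. By edgeR at a minimum mean of 1, chosen after seeing the data, they were 18 for the average, 12 in CTCF, 2 for ID versus I in LCL and 4 for ID versus U in CTCF.

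At an adjusted p under 0.05 with no fold limit, I versus U gave 5 in CTCFL and 5 in CLC, and 2 for CLC against CTCFL. ID versus I gave 2 in CTCF, 3 in CTCFL, 2 in LCL, 1 in CLC, and 1 each for CTCFL and CLC against CTCF. ID versus U gave 4 in CTCF and 2 in CTCFL, D versus U 1 in CTCFL, and untreated lines 2. With all lines in 1 fit, I versus U gave 2 in CTCF, ID versus U 0 in CTCF, ID versus I 0 in CTCFL, 2 in LCL and 1 in CLC, and D versus U 0 in LCL. With the 2 groups alone, I versus U gave 1 in CTCFL, 2 in LCL and 1 in CLC, ID versus I 0 in LCL and ID versus U 4 in CTCF. DESeq2 gave 0 for ID versus I in CTCFL and 1 in CLC, edgeR 0 for ID versus I and for ID versus U in CTCFL, a pseudocount of 5 gave 0 for ID versus I in LCL, and TMM 0 for untreated lines.

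The replicate block lowered ID versus U in the CTCF line from 2 to 1 member and moved no other count by over 1.5 times. The numbers do not pair the samples: deviations of same-numbered libraries correlated at -0.30 to 0.16 in CTCF, -0.06 to 0.06 in CTCFL, -0.02 to 0.07 in LCL and -0.25 to 0.06 in CLC.

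Leaving out 1 library gave, for I versus U, 1 to 6 in CTCF, 2 to 3 in CTCFL, 1 to 5 in LCL, 0 to 5 in CLC and 0 to 1 for CLC against CTCFL. For ID versus I it gave 1 to 2 in CTCF, 0 to 2 in CTCFL, 0 to 2 in LCL, 0 to 1 in CLC, and 0 to 1 for LCL and for CLC against CTCF. For ID versus U it gave 0 to 3 in CTCF, 0 to 1 in CTCFL, 1 to 2 in LCL and 0 to 4 in CLC. D versus U in LCL and the untreated lines ranged from 0 to 1. The gamma A and B sum with auxin as a percent of untreated ranged from 16.7 to 21.2 in CTCF, 29.4 to 35.3 in CTCFL, 22.4 to 24.1 in LCL and 13.9 to 26.5 in CLC.

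With a promoter window of 3 kb, member promoters with a site rose to 19 in CTCFL D, 11 in CLC ID and 1 each in LLC D and ID. At a -log10 q of at least 5 there were 7 in CTCFL D, sites numbered 0 in LLC D and 1 in LLC ID, and RAD21 regions 0 in CTCF D. A minimum overlap of 50% left 0 sites in LLC D. Single replicates gave 29 to 45 sites in CTCFL D, 28 to 35 in CTCFL ID, 69 to 84 in CTCF D, 57 to 67 in CTCF ID, 46 to 61 in LCL D, 60 to 60 in LCL ID, 6 to 7 in CLC D, 23 to 25 in CLC ID, 0 to 7 in CLL D, 10 to 21 in CLL ID, 2 to 3 in LLC D and 3 to 5 in LLC ID. After RNase they gave 7 to 25 for CTCF and 3 to 7 for CTCFL, and after mock treatment 32 to 33 and 6 to 9. Promoters bound ranged from 11 to 20 in CTCFL D, 12 to 18 in CTCFL ID, 8 to 9 in CLC ID, 2 to 3 in CLC D, 0 to 2 in CLL D, 3 to 8 in CLL ID and 1 to 1 in LLC ID, and after RNase from 3 to 13 for CTCF and 1 to 3 for CTCFL. RAD21 regions ranged from 1 to 24 in CTCF D, 1 to 3 in CTCF ID, 0 to 13 in CTCFL D, 0 to 3 in CTCFL ID, 0 to 13 in LCL D, 0 to 4 in LCL ID and 0 to 7 in CLC D. Edges by HiCratio numbered 5 in CLC D, CTCF I, CTCFL I and CTCFL ID. The causes of these differences were not tested.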
